A study of Mus musculus with 48 samples.

Results

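The immune cells of B16F10 melanomas that are neither CD4+ nor CD8+ T cells were compared with the CD4+ and CD8+ T cells sorted from the same kind of tumor, in wild-type (WT) mice. This comparison used 12 of the 48 libraries of the series: 4 of CD45+ cells from which CD4+ and CD8+ cells had been gated out, 4 of CD4+ and 4 of CD8+ tumor-infiltrating lymphocytes (TILs). A gene was taken as specific to the CD45+ sort when it differed in the same direction from both T-cell sorts, and the members described here are the 1968 genes higher and the 2209 genes lower under that rule, among 14942 genes with enough reads to test. The question put to the data was which genes mark the non-T-cell immune infiltrate of this tumor, and which sort carries RNA of the melanoma cells.

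All mice were C57BL/6J. The WT animals were littermate controls of a line with loxP-flanked Yap alleles, the CD4-Cre transgene and a Cre-dependent EYFP reporter (Yap-cKO). In that line the Cd4 promoter drives Cre during thymic development, so that CD4+ and CD8+ T cells are both expected to lose Yap, while most other leukocytes are not. Mice were 6 to 10 weeks old and carried subcutaneous B16F10 tumors, a melanoma line of C57BL/6 origin. The labels give no further treatment. Tumors were digested with collagenase and DNase, and live cells were sorted after staining for CD45, CD3, CD4 and CD8. The same 3 sorts of the Yap-cKO tumors, and of the tumor-draining inguinal lymph nodes of WT mice, with 4 libraries each, were used only to set the WT tumor values beside them. The labels number the replicates of each group from 1 to 4 without saying that each is a separate mouse, so p-values measure the spread between these samples.

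As background, growing tumors recruit circulating monocytes that turn into macrophages, together with dendritic cells, neutrophils, natural killer (NK) cells and B cells. Macrophages and dendritic cells engulf dying cells, break proteins down in lysosomes and show the peptides on MHC class II molecules to CD4+ T cells. T cells are defined by the T-cell receptor, a pair of variable chains held at the surface by the CD3 proteins, and carry activating and inhibitory receptors whose ligands sit on myeloid cells and on tumor cells.

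Each library held 12656510 to 23661203 counts assigned to genes, with 18638913 to 23661203 in the CD45+, 15580299 to 18044602 in the CD4+ and 12656510 to 18471246 in the CD8+ libraries. Levels are given in CPM, counts scaled to library size, after trimmed mean of M-values (TMM) scaling, listed in the order of replicates 1 to 4, and 3 counts corresponded to 0.126 to 0.219 CPM on that scale. Differences are log2 fold changes of the CD45+ over a T-cell sort. A gene passed the test with an adjusted p under 0.05 (edgeR quasi-likelihood, Benjamini-Hochberg) and an absolute log2 fold change above 1. In bulk libraries such as these, fewer cells of a type and less RNA per cell cannot be told apart.

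The sorted antigens followed the gates, which set these values. Cd4 was at 25.5, 40.6, 21.8 and 22.2 CPM in the CD45+ libraries, 103, 366, 491 and 416 in the CD4+ libraries and 0.584, 0.379, 1.55 and 0.293 in the CD8+ libraries. Cd8a was at 11.5, 9.07, 10.5 and 8.03 CPM in the CD45+ libraries, 0.347, 0.348, 1.37 and 0.584 in the CD4+ libraries and 263, 207, 651 and 562 in the CD8+ libraries. Each coreceptor was therefore high in its own sort, while the CD45+ libraries held Cd4 above the CD8+ and Cd8a above the CD4+ level. Ptprc, which encodes CD45 itself, was at 637, 609.6, 625 and 804 CPM in the CD45+ libraries, 157, 163, 265 and 691 in the CD4+ libraries and 304, 354, 531 and 322 in the CD8+ libraries, and its difference passed neither test (1.07 and 0.82 (adjusted p = 0.052 and 0.124, edgeR)). When the fit paired libraries of the same replicate number (replicate block), the difference of Ptprc from CD4+ TILs was 1.28 and passed (adjusted p = 0.00949, edgeR).

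Both T-cell sorts carried more melanoma RNA than the CD45+ sort. The summed level of 11 melanocyte genes was 2111, 1679, 1206 and 2018 CPM in the CD45+ libraries, 18467, 13898, 6237 and 8902 CPM in the CD4+ and 15973, 10833, 4288 and 12653 CPM in the CD8+ libraries. The 2 T-cell sorts lay above the CD45+ sort in every library, by 6.37-fold (CD4+) and 5.74-fold (CD8+) by geometric mean. The sum of 13 genes that all leukocytes use went the other way, at 13262 to 15887 CPM in the CD45+, 3135 to 9207 in the CD4+ and 3770.4 to 8981 in the CD8+ libraries. In the lymph node the melanoma sum averaged only 15.3 to 23.5 CPM across the 3 sorts and the leukocyte sum was 13919.6 to 19319 CPM. The melanoma sum of the Yap-cKO tumors averaged 366 CPM in the CD45+, 1229.8 in the CD4+ and 1182 in the CD8+ sort. The ratio of the melanoma to the leukocyte sum was 0.0848 to 0.159 in the WT CD45+ and 0.477 to 5.89 in the WT T-cell libraries. The part that tumor RNA had in the results below was not tested except where a value is given.

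**Figure D1:**
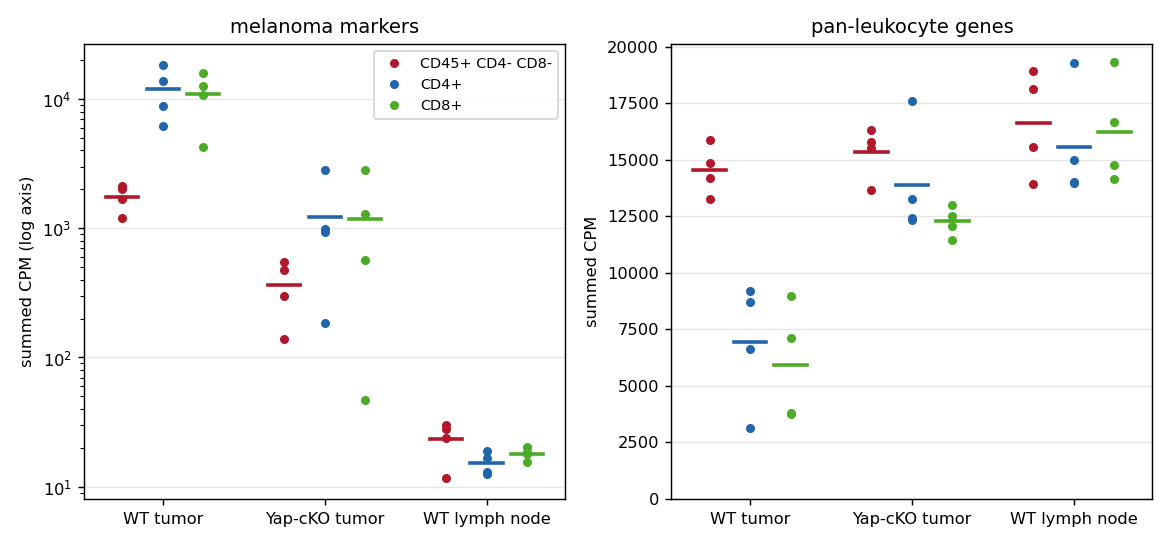
Summed CPM of 11 melanocyte genes (left, log axis) and of 13 genes shared by all leukocytes (right, linear axis) in each library of the WT tumor, Yap-cKO tumor and WT lymph node, by sort; points are libraries and short lines means. In the WT tumor the melanoma sum is 1206 to 2111 CPM in the CD45+ sort and 4288 to 18467 CPM in the T-cell sorts, while the leukocyte sum is highest in the CD45+ sort.

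Against CD4+ TILs, 2222 genes were higher (14.9% of those tested) and 2553 lower (17.1%) in the CD45+ TILs. Against CD8+ TILs the numbers were 2288 (15.3%) and 2653 (17.8%). The rule kept 1968 genes as higher (13.2%) and 2209 as lower (14.8%) than both. Counts of list members below are to be read beside these shares. Where few members of a list were called in a direction, the count can lie near them. The contrasts share the 4 CD45+ libraries, so the number kept is a count fixed by the rule and not a repeat of one result by another. Of the higher genes 1776 and of the lower genes 2041 were protein coding. The median log2 fold change of the higher genes was 2.70 against CD4+ and 2.71 against CD8+ TILs, and 430 of them exceeded 5 in both. The lower genes had medians of −2.19 and −2.22, and 131 exceeded 5 in size in both. The 4 CD45+ values lay outside the range of all 8 T-cell values for 4564 of the genes tested (30.5%), among them 1833 of the higher and 1682 of the lower genes. Just 7 genes passed in opposite directions. Cd4 was lower than in CD4+ and higher than in CD8+ TILs, and Cd8a, Cd8b1, Eomes, Klrc1, Crtam and Smyd1 did the reverse.

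The balance of higher and lower genes depends on how libraries are put on one scale. Lower genes made up 53.5% of the calls against CD4+ and 53.7% against CD8+ TILs with TMM scaling, 73.8% and 74.8% with total counts alone, and 88% and 90% when each library was scaled on the pan-leukocyte genes. The median log2 fold change over all genes was −0.06 and −0.09 with TMM, −0.59 and −0.65 with total counts and −1.35 and −1.50 on the leukocyte scale. A value is to be read relative to these medians. All 856 genes still higher on the leukocyte scale were among the 1968.

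The label of the CD45+ sort was set beside markers. The lists differ in size. Macrophage and monocyte genes made up the largest of the cell-type sums of the CD45+ sort, most of it Lyz2 RNA in every CD45+ library. Their total over 18 genes was 39385, 27862, 41908 and 32831 CPM in the CD45+ libraries, 820.1, 505, 1037 and 591 in the CD4+ and 916, 619.5, 1459 and 1337 in the CD8+ libraries, 49.4- and 34.2-fold apart by geometric mean. The sum over 20 T-lineage genes was 327, 295, 267 and 267 CPM in the CD45+, 2438, 6538, 9487 and 7108 in the CD4+ and 2958, 3104, 8218 and 6702 in the CD8+ libraries. No CD45+ library overlapped a T-cell library in either sum. For each the exact two-sided permutation test gave p = 0.0286, the smallest possible with 4 against 4, and 0.0429 (CD4+) and 0.0514 (CD8+) after Benjamini-Hochberg adjustment over the marker sums. The gates fixed the direction of the T-lineage sum in advance. Sorting CD4+ and CD8+ T cells also leaves myeloid cells out of both comparison groups, so neither p-value is a check of the label. The T-lineage sum of the CD45+ sort was not at 0. It was 0.0168 to 0.0247 of the leukocyte sum, against 0.778 to 1.03 in the T-cell libraries.

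**Figure D2:**
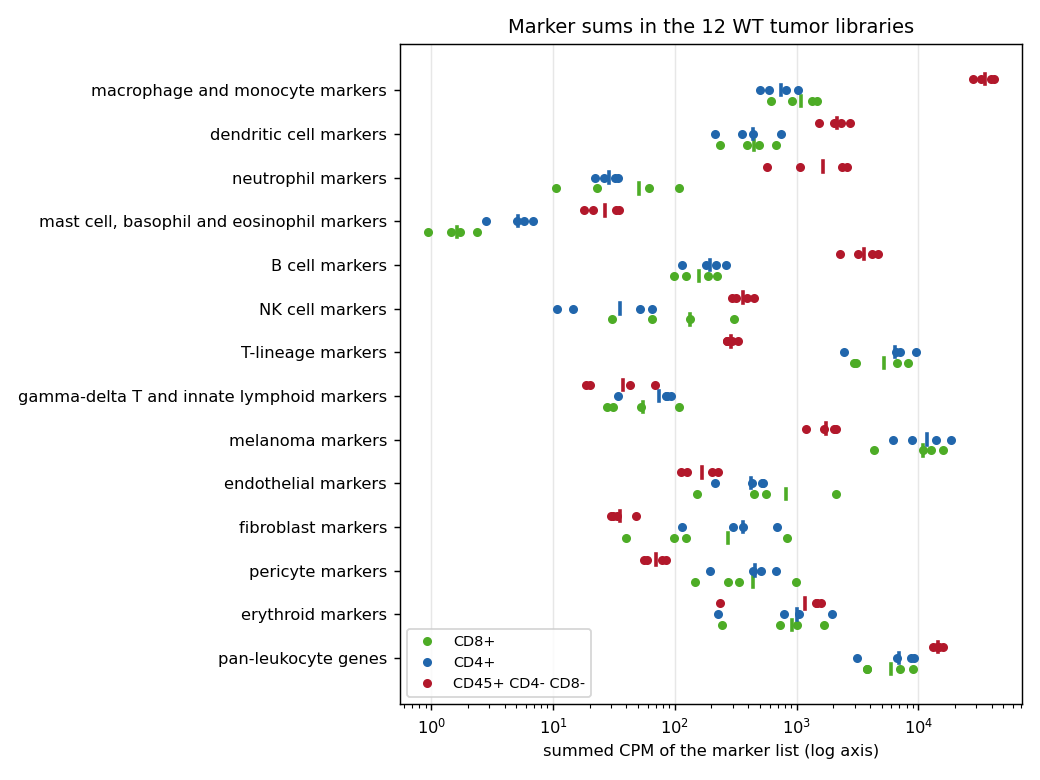
Summed CPM (log axis) of each cell-type marker list in the 12 WT tumor libraries; points are libraries and vertical lines means of the CD45+ CD4- CD8-, CD4+ and CD8+ sorts. Macrophage sums are 27862 to 41908 CPM in the CD45+ sort and at most 1459 CPM in the T-cell sorts, T-lineage sums lie the other way round, and melanoma sums are higher in the T-cell sorts.

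Of the 18 macrophage and monocyte markers, 17 were higher than in both T-cell sorts, with medians of 5.07 and 5.16 over the 18. Lyz2, which encodes lysozyme M of macrophages, monocytes and neutrophils, was at 27705, 19142, 27072 and 21373 CPM in the CD45+ libraries, 392, 177, 495 and 156 in the CD4+ libraries and 396, 155, 452 and 242 in the CD8+ libraries. Every CD45+ library stood far above every T-cell library, and the log2 fold change was 6.29 ± 0.51 (SE) against CD4+ and 6.26 ± 0.51 against CD8+ TILs (adjusted p = 8.48e-07 and 9.1e-07, edgeR). Csf1r, the receptor for the macrophage growth factor CSF1, was at 905, 1476, 1485 and 1758 CPM in the CD45+ libraries, 18.1, 17.97, 22.5 and 10.6 in the CD4+ libraries and 14.6, 13.4, 26.2 and 21.8 in the CD8+ libraries. It again separated the sorts without overlap, by 6.34 ± 0.36 (SE) against CD4+ and 6.21 ± 0.36 against CD8+ TILs. Cd14, a coreceptor for bacterial lipopolysaccharide, was at 2412, 900.1, 3802 and 1861 CPM in the CD45+ libraries, 38.5, 12.1, 38.2 and 18.5 in the CD4+ libraries and 45.9, 9.15, 85.3 and 22.5 in the CD8+ libraries. Within the CD45+ sort Cd14 varied from 900.1 to 3802 CPM, more than Csf1r did. The complement subunit C1qb was at 1959.5, 1050.5, 2308 and 992 CPM in the CD45+ libraries, 89.2, 31.6, 78.3 and 32.97 in the CD4+ libraries and 58.6, 27.98, 55.8 and 30.9 in the CD8+ libraries. The exception was Ly6c2, a surface antigen of inflammatory monocytes that activated CD8+ T cells also carry, at 609.8, 563, 643 and 964 CPM in the CD45+ libraries, 39.5, 100.4, 138 and 151 in the CD4+ libraries and 207, 263, 622 and 889 in the CD8+ libraries. Its CD8+ values reached into the CD45+ range, and its difference passed against CD4+ but not CD8+ TILs (2.70 and 0.49 (adjusted p = 0.000718 and 0.435, edgeR)).

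The bases before the start sites of 3 specific genes and 1 melanoma gene are shown because the genes stand for the myeloid, T-cell and tumor-cell RNA in these sorts. The sequences are from RefSeq on GRCm38.p6, on the strand of each gene, which is minus for all 4, and end just before the annotated gene. Capitals mark any match, on either strand, to GAGGAA (the core bound by PU.1, the myeloid factor encoded by Spi1), TGTGGT (RUNX) or TCATGTG (the M-box of the melanocyte factor MITF). By the GENCODE M21 annotation of GRCm38 the genes themselves span chr10:117277331-117282321 (Lyz2), chr4:136880129-136886187 (C1qb), chr9:44998740-45009627 (Cd3e) and chr14:118012790-118052244 (Dct). Lyz2 is shown from chr10:117282322-117282522, C1qb from chr4:136886201-136886450, Cd3e from chr9:45009628-45009861 and Dct from chr14:118052247-118052496.
Lyz2: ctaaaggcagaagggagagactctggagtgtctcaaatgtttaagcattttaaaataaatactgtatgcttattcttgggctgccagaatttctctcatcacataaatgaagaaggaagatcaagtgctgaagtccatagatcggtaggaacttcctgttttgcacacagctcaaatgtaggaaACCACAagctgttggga
C1qb: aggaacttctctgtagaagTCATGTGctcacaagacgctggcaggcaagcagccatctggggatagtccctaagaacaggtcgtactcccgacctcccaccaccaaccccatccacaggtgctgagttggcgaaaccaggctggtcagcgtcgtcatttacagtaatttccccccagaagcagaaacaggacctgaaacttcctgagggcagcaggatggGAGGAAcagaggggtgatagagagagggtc
Cd3e: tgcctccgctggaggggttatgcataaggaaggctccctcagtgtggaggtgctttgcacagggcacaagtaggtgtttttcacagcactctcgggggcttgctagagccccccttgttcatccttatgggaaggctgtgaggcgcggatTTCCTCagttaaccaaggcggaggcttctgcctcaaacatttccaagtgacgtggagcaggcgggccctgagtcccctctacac
Dct: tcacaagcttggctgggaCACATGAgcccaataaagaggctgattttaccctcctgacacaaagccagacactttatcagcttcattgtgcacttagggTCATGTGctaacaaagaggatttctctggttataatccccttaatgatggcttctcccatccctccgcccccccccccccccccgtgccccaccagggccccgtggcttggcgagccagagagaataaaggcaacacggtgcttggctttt

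The Lyz2 window held 1 RUNX match and no PU.1 core, the C1qb window 1 PU.1 core and 1 M-box, the Cd3e window 1 PU.1 core, and the Dct window 2 M-boxes. Motifs this short can also occur by chance, and these matches are a description of the letters and not of binding. Over 13952 RefSeq promoters of genes tested, GAGGAA or its complement occurred in 22.9%. It occurred in 28.9% of the 1762 promoters of genes higher in the CD45+ sort and 22.6% of the 2014 promoters of lower genes. TGTGGT was found in 11.3% of all, 13% of the higher and 11.3% of the lower promoters, TCATGTG in 1.97%, 3.06% and 2.83%, and the GATA motif AGATAA in 6.39%, 6.87% and 5.71%.

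Other leukocyte types were present in the CD45+ sort as well. Of 12 dendritic cell markers, 11 were higher than in both T-cell sorts (median 5.09 and 4.13). Cd209a, a lectin of monocyte-derived dendritic cells, was at 365, 579.6, 484 and 177 CPM in the CD45+ libraries, 5.49, 4.52, 10.8 and 1.22 in the CD4+ libraries and 4.82, 1.77, 1.73 and 1.99 in the CD8+ libraries. CD45+ replicate 4 held the least, yet all 4 stood above all T-cell values, by 6.19 ± 0.65 (SE) against CD4+ and 7.30 ± 0.69 against CD8+ TILs. Siglech, a lectin of plasmacytoid dendritic cells, was at 257, 198, 159.6 and 97.9 CPM in the CD45+ libraries, 0.867, 1.74, 0.820 and 1.81 in the CD4+ libraries and 1.17, 2.61, 1.01 and 0.117 in the CD8+ libraries. Its log2 fold changes were 7.08 and 7.13. Ccr7, which guides mature dendritic cells and also naive T cells toward lymph nodes, was the member that differed least, at 611 to 841 CPM in the CD45+, 166 to 635 in the CD4+ and 177 to 557 in the CD8+ libraries. The CD45+ and CD4+ ranges overlapped, with log2 fold changes of 1.11 and 1.19 (adjusted p = 0.044 and 0.0326, edgeR) that became −0.85 and −0.71 with the melanoma markers as a covariate.

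All 7 neutrophil markers that had enough reads were higher (median 6.30 and 5.14), while the surface antigen gene Ly6g and the granule protein genes Camp and Ngp did not pass the filter on low counts. S100a8, an alarmin of neutrophils and monocytes, was at 943, 154, 394 and 897 CPM in the CD45+ libraries, 7.97, 0.745, 7.11 and 2.60 in the CD4+ libraries and 19.9, 2.23, 40.9 and 4.99 in the CD8+ libraries. CD45+ replicates 1 and 4 held the most and replicate 2 the least, and all 4 exceeded the T-cell libraries, by 7.02 ± 1.07 (SE) against CD4+ and 5.14 ± 0.98 against CD8+ TILs (adjusted p = 0.000192 and 0.000983, edgeR). Csf3r, the G-CSF receptor, was at 147 to 364 CPM in the CD45+, 1.31 to 3.87 in the CD4+ and 0.632 to 12.8 in the CD8+ libraries (6.30 and 5.14). The summed neutrophil level spanned 572 to 2604 CPM over the CD45+ libraries, a wider spread in relation to its level than that of the macrophage sum.

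All 13 B-cell markers were higher (median 7.26 and 6.03). Cd79a, a signaling chain of the B-cell receptor, was at 776, 568, 386 and 469 CPM in the CD45+ libraries, 3.99, 3.48, 2.08 and 1.54 in the CD4+ libraries and 8.40, 4.47, 7.16 and 3.34 in the CD8+ libraries. The CD45+ libraries were uniformly high and the T-cell libraries uniformly low, with 7.63 ± 0.45 (SE) against CD4+ and 6.56 ± 0.43 against CD8+ TILs (adjusted p = 1.04e-07 and 2.17e-07, edgeR). Ighd, the constant region of immunoglobulin D, was at 284 to 621 CPM in the CD45+, 0.601 to 5.32 in the CD4+ and 5.18 to 6.86 in the CD8+ libraries (7.63 and 6.27). Ighm, the constant region of immunoglobulin M, was the member with most RNA in the T-cell sorts, at 931 to 1780.3 CPM in the CD45+, 89.2 to 246 in the CD4+ and 63.2 to 178 in the CD8+ libraries, and still differed by 3.02 and 3.56.

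NK-cell markers were divided between the contrasts. All 9 members tested were higher than in CD4+ TILs, but only 5 were also higher than in CD8+ TILs. Ncr1, the activating receptor NKp46, was at 60.4, 57.1, 46.2 and 64.1 CPM in the CD45+ libraries, 0.0578, 0.695, 0.0547 and 1.33 in the CD4+ libraries and 0.219, 1.22, 4.60 and 0.117 in the CD8+ libraries. It was at most 1.33 CPM in the CD4+ and 4.60 CPM in the CD8+ sort (6.70 ± 1.03 (SE) against CD4+ and 5.20 ± 0.94 against CD8+ TILs (adjusted p = 0.000194 and 0.000662, edgeR)). Klra7, an inhibitory Ly49 receptor, was at 21.8, 13.2, 15.7 and 21.8 CPM in the CD45+ libraries, 0.0578, 0.397, 0.383 and 1.54 in the CD4+ libraries and 5.91, 8.77, 26.6 and 21.9 in the CD8+ libraries. The CD8+ values covered the CD45+ range, and it differed from CD4+ but not CD8+ TILs (4.91 and 0.20 (adjusted p = 0.000123 and 0.816, edgeR)). Klre1, another NK receptor, at 22.3 to 32.98 CPM in the CD45+, 0.867 to 2.60 in the CD4+ and 5.62 to 32.5 in the CD8+ libraries, behaved alike (3.74 and 0.78 (adjusted p = 0.000122 and 0.219, edgeR)), and with the replicate block it also passed against CD8+ TILs. Ly49 genes are near-identical copies, so their counts depend on how the authors' program divided shared reads.

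Few reads came from mast cells and their relatives. Of 11 markers of mast cells, basophils and eosinophils, 5 passed the filter and 4 were higher than in both T-cell sorts. Cma1, a mast-cell chymase, was at 10.99, 4.87, 6.45 and 10.3 CPM in the CD45+ libraries and at no more than 3 counts in any T-cell library, at least 50.5-fold (CD4+) and 46.5-fold (CD8+) higher when the T-cell groups are set to 3 counts per library. Tpsb2, a mast-cell tryptase with no count in any of the 8 T-cell libraries, was at 3.53, 0.615, 2.13 and 4.93 CPM, at least 17.4- and 15.99-fold higher. Without any single CD45+ library, none of the 4 genes was called, since the filter asks for 10 counts in 4 libraries.

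The 15 protein-coding genes with the largest differences from both T-cell sorts, at 50 CPM or more in the CD45+ libraries, were Ear2, Adgre4, Ly6d, Gpr141, Cd177, Siglech, Mzb1, Ifitm6, Klra2, Fcmr, Chil3, Sirpb1c, Fcrla, C3 and Apoc2. They mixed myeloid genes with genes of B cells and plasmacytoid dendritic cells. Chil3, the chitinase-like protein Ym1 of myeloid cells, was at 773, 490.2, 662 and 648 CPM in the CD45+ libraries, 3.005, 0.794, 2.68 and 2.92 in the CD4+ libraries and 4.67, 2.02, 15.1 and 3.52 in the CD8+ libraries. It was within a narrow range in the CD45+ sort, with log2 fold changes of 8.10 ± 0.69 (SE) against CD4+ and 6.67 ± 0.64 against CD8+ TILs (adjusted p = 1.34e-06 and 4.39e-06, edgeR). Adgre4, an adhesion receptor related to the macrophage antigen F4/80, was at 96.1, 90.95, 81.2 and 151 CPM in the CD45+ libraries, 0.693, 0.0497, 0.0547 and 0.372 in the CD4+ libraries and 0.219, 0.801, 0.776 and 0.704 in the CD8+ libraries. Several of its T-cell values were no more than 3 counts, and the fitted differences were 8.48 and 7.34. C3, the central complement protein, varied most among the CD45+ libraries, at 92.6, 256, 205 and 623 CPM. Its T-cell values were 0.875 to 3.35 and 1.46 to 5.49 CPM (7.09 and 6.59). Fcmr, the receptor for immunoglobulin M on B cells, was at 143 to 307 CPM in the CD45+, 0.0547 to 1.44 in the CD4+ and 1.22 to 3.04 in the CD8+ libraries (8.41 and 6.70). Ear2, Ifitm6, Klra2 and Sirpb1c belong to families of similar genes, and reads may have been divided among copies. The plot of the 30 genes with the largest differences shows their level in every library. All 30 were chosen among genes whose CD45+ values overlapped with neither T-cell sort.

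**Figure D3:**
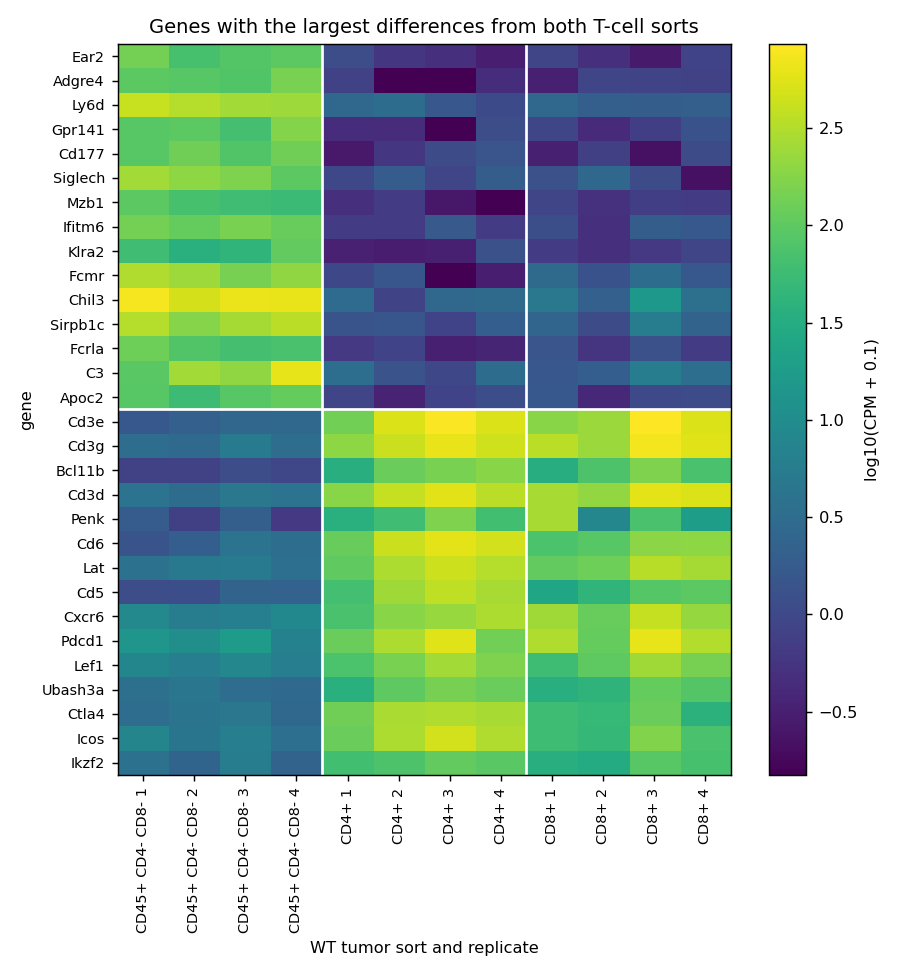
Heat map of log10(CPM + 0.1) in the 12 WT tumor libraries for the 15 genes higher (top) and the 15 lower (bottom) in the CD45+ CD4- CD8- sort with the largest differences from both T-cell sorts; columns are replicates 1 to 4 of each sort. The choice of genes required the CD45+ columns to lie apart from all 8 T-cell columns, and the lower genes range more widely between T-cell replicates.

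Antigen presentation to CD4+ T cells set the sorts apart. All 12 genes of MHC class II presentation were higher, with medians of 6.11 and 6.004, against a background of 13.2% of all tested genes. Cd74, the invariant chain that guards the class II groove, was at 18532, 27389, 25049.6 and 20624 CPM in the CD45+ libraries, 219.9, 470.5, 415 and 244 in the CD4+ libraries and 199, 148, 465 and 339 in the CD8+ libraries. By deposited TPM it was the most abundant RNA of the CD45+ sort, and it differed by 6.08 ± 0.45 (SE) against CD4+ and 6.31 ± 0.45 against CD8+ TILs (adjusted p = 3.77e-07 and 3.73e-07, edgeR). The class II chain gene H2-Ab1 was at 11844, 13934, 14329 and 9754 CPM in the CD45+ libraries, 111, 229.8, 166 and 101 in the CD4+ libraries and 114, 70.3, 237 and 168 in the CD8+ libraries. It differed by 6.36 ± 0.45 (SE) against CD4+ and 6.40 ± 0.45 against CD8+ TILs. H2-Aa and H2-Eb1 were at 7899.6 ± 1377 CPM and 6218 ± 1112 CPM (SD, n = 4) in the CD45+ sort, with log2 fold changes of 6.50 and 6.41 and 6.23 and 6.21. MHC class I genes, which all nucleated cells use, behaved differently: none of 12 was called against both sorts. B2m, the class I light chain, was at 2615 to 4395 CPM in the CD45+, 1264 to 2473 in the CD4+ and 1301 to 2941 in the CD8+ libraries, and its differences of 0.94 and 0.82 stayed under the fold threshold (adjusted p = 0.0221 and 0.0397, edgeR). H2-K1, a class I heavy chain, was at 2138 to 2613 CPM in the CD45+, 1109 to 3793 in the CD4+ and 1179.9 to 3421 in the CD8+ libraries, with overlapping values (−0.06 and 0.24 (adjusted p = 0.931 and 0.657, edgeR)). The class I medians of 0.75 and 0.86 turned negative on the leukocyte scale (−0.32 and −0.47).

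Receptors for antibody and most complement genes were higher in the CD45+ sort. All 7 Fc-receptor genes were higher (median 5.81 and 5.51). Fcer1g, the signaling chain that Fc receptors share, was at 2094, 1346, 2189 and 1987 CPM in the CD45+ libraries, 45.9, 28.6, 38.3 and 28.5 in the CD4+ libraries and 41.98, 19.6, 87.4 and 63.5 in the CD8+ libraries. Its difference was 5.75 ± 0.44 (SE) against CD4+ and 5.16 ± 0.43 against CD8+ TILs (adjusted p = 5.66e-07 and 1.13e-06, edgeR). Fcgr2b, the inhibitory Fc receptor, was at 564 to 872 CPM in the CD45+, 11.4 to 16.1 in the CD4+ and 9.36 to 23.9 in the CD8+ libraries (5.86 and 5.51), and Fcgrt, the neonatal Fc receptor that many cell types use, differed least of the 7 (2.85 and 2.33). Of 16 complement genes 11 were higher and 2 lower, the latter count near the 14.8% lower among all tested genes. C1qa and C1qc, which build the C1q trigger of the classical pathway with C1qb, stood at 481 ± 204 CPM and 683 ± 259 CPM (SD, n = 4) in the CD45+ sort, with log2 fold changes of 4.48 and 4.95 and 4.14 and 4.68. Cfp, the positive regulator properdin, differed by 5.68 and 5.80. C2 and C1s1, which encode proteases of the same pathway, went the opposite way. C2 was at 10.4, 9.18, 5.60 and 6.91 CPM in the CD45+ libraries, 85.8, 76.2, 32.9 and 44.2 in the CD4+ libraries and 67.8, 54.5, 23.8 and 69.9 in the CD8+ libraries. All CD45+ values lay under all T-cell values (−2.90 ± 0.39 (SE) against CD4+ and −2.75 ± 0.39 against CD8+ TILs (adjusted p = 7.4e-05 and 0.000111, edgeR)). In the Yap-cKO tumors C2 was not called (−1.63 and −1.04), and C1s1 had too few reads to be tested.

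Sensors of microbes and of damaged cells were mostly higher in the CD45+ sort, 19 of 22, and none was lower (median 4.61 and 4.60). Clec7a, the β-glucan receptor dectin-1, was at 639, 248, 421 and 781 CPM in the CD45+ libraries, 3.24, 0.695, 1.86 and 2.02 in the CD4+ libraries and 5.40, 2.23, 9.55 and 3.34 in the CD8+ libraries. It differed by 8.07 ± 0.65 (SE) against CD4+ and 6.67 ± 0.60 against CD8+ TILs (adjusted p = 7.89e-07 and 2.47e-06, edgeR). Clec4n, the lectin dectin-2, was at 295 to 697 CPM in the CD45+, 2.63 to 9.42 in the CD4+ and 0.927 to 21.7 in the CD8+ libraries (6.63 and 5.88). Myd88, the adaptor of most Toll-like receptors, had more RNA in T cells than Clec7a or Clec4n had there. It was at 284 to 415 CPM in the CD45+, 31.6 to 89.2 in the CD4+ and 39.4 to 76.1 in the CD8+ libraries. Myd88 was thus higher in the CD45+ sort, by 2.49 and 2.61. Nod1, Ddx58 and Tmem173 were not called against both sorts.

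Of 14 inflammasome and interleukin-1 family genes, 10 were higher and 1 lower in the CD45+ sort, and 5 of the 14 were called higher in the Yap-cKO tumors. Il1b, which encodes the inflammatory cytokine interleukin-1β, was at 5621, 2455, 6648 and 4471 CPM in the CD45+ libraries, 41.4, 22.99, 42.97 and 24.001 in the CD4+ libraries and 69.4, 17.4, 179 and 40.9 in the CD8+ libraries. It differed by 7.19 ± 0.72 (SE) against CD4+ and 5.97 ± 0.68 against CD8+ TILs (adjusted p = 5.59e-06 and 1.81e-05, edgeR), and CD45+ replicate 2 held the least. Il1rn, the natural antagonist of that cytokine, was also lowest in CD45+ replicate 2, at 1134, 337, 847 and 1045 CPM in the CD45+ libraries, 27.04, 6.40, 22.3 and 12.4 in the CD4+ libraries and 26.6, 3.12, 42.4 and 18.5 in the CD8+ libraries. The difference was 5.62 ± 0.75 (SE) against CD4+ and 5.22 ± 0.73 against CD8+ TILs. Il1r2, the decoy receptor, was at 121 to 360.4 CPM in the CD45+, 33.2 to 73.2 in the CD4+ and 3.25 to 37.7 in the CD8+ libraries (2.29 and 3.31). Pycard, the adaptor that joins inflammasome sensors to caspase-1, was at 202 to 270.5 CPM in the CD45+, 83.1 to 125 in the CD4+ and 60.6 to 112 in the CD8+ libraries, and its differences of 1.16 and 1.42 became −0.03 against CD4+ TILs on the leukocyte scale. Il18r1, an interleukin-18 receptor chain used by T and NK cells, was the lower member, at 6.18 to 10.9 CPM in the CD45+, 16.8 to 51.98 in the CD4+ and 13.99 to 26.4 in the CD8+ libraries (−2.13 and −1.43 (adjusted p = 0.000359 and 0.00509, edgeR)).

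Of 23 chemokine genes tested, 18 were higher than in both T-cell sorts and none was lower than in both (median 4.72 and 4.67). Ccl6, a chemokine of macrophages and neutrophils, was at 4249, 2068, 5482 and 2819.5 CPM in the CD45+ libraries, 107, 27.1, 145 and 30.1 in the CD4+ libraries and 123, 28.7, 98.6 and 67.9 in the CD8+ libraries. Its difference was 5.56 ± 0.67 (SE) against CD4+ and 5.52 ± 0.67 against CD8+ TILs (adjusted p = 2.96e-05 and 3.08e-05, edgeR). Ccl2, which draws monocytes through Ccr2, was at 599 to 1059.9 CPM in the CD45+, 18.2 to 49.6 in the CD4+ and 15.97 to 38.7 in the CD8+ libraries (4.78 and 5.03). Ccl4, made by macrophages and by activated CD8+ T cells alike, was at 846, 419, 755 and 618 CPM in the CD45+ libraries, 20.1, 18.4, 33.02 and 28.7 in the CD4+ libraries and 157, 56.5, 218 and 539 in the CD8+ libraries. Its values in CD8+ TILs lay above those in CD4+ TILs and replicate 4 fell within the CD45+ range, with differences of 4.72 and 1.44 (adjusted p = 3.34e-05 and 0.0348, edgeR). Ccl5, a chemokine of effector T cells, was at 237, 170.2, 176 and 174 CPM in the CD45+ libraries, 51.4, 128, 358 and 201 in the CD4+ libraries and 344, 449, 1325 and 538 in the CD8+ libraries. It did not differ beyond the spread from CD4+ TILs and was lower than in CD8+ TILs (0.04 and −1.81 (adjusted p = 0.967 and 0.0129, edgeR)).

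Of 20 chemokine receptors tested, 11 were higher and 4 lower. Ccrl2, an atypical receptor induced in activated myeloid cells, was at 1032, 209, 538 and 705 CPM in the CD45+ libraries, 31.03, 32.8, 57.5 and 27.1 in the CD4+ libraries and 30.8, 6.45, 48.4 and 34.1 in the CD8+ libraries. CD45+ replicate 2 was lowest, as for Il1rn, and the differences were 4.06 and 4.37. The 4 lower receptors, Ccr4, Ccr8, Cxcr3 and Cxcr6, belong to activated T-cell subsets. Cxcr6 was at 8.64, 5.54, 6.10 and 8.36 CPM in the CD45+ libraries, 70.8, 184, 225 and 299.6 in the CD4+ libraries and 248, 116, 403 and 218 in the CD8+ libraries. It differed by −4.77 ± 0.48 (SE) against CD4+ and −5.10 ± 0.49 against CD8+ TILs (adjusted p = 5.77e-06 and 3.79e-06, edgeR). Ccr8, which marks regulatory T cells of tumors, was at 0.899, 0.256, 1.49 and 1.32 CPM in the CD45+ libraries, 63.7, 65.9, 187 and 101 in the CD4+ libraries and 12.8, 1.39, 11.04 and 16.95 in the CD8+ libraries. It stood higher in CD4+ than in CD8+ TILs, with log2 fold changes of −6.74 and −3.43 for the CD45+ sort. Ccr4 had no more than 3 counts in any CD45+ library and was at 8.09 to 36.2 CPM in CD4+ and 0.587 to 1.25 in CD8+ TILs, at least 139- and 4.22-fold lower.

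Genes of engulfment and digestion formed another group. Of 20 lysosomal genes 18 were higher, by less than the immune-receptor genes above (median 1.84 and 1.94). Ctsb, the protease cathepsin B, was at 5217, 4317, 5276 and 4720.1 CPM in the CD45+ libraries, 978, 766, 963 and 675 in the CD4+ libraries and 758, 566, 663 and 727 in the CD8+ libraries. Its difference was 2.53 ± 0.20 (SE) against CD4+ and 2.85 ± 0.21 against CD8+ TILs (adjusted p = 8.48e-07 and 4.03e-07, edgeR). Psap, the precursor of the saposins that help to degrade lipids, was at 3212, 6669, 5846 and 6571 CPM in the CD45+ libraries, 418, 563, 539 and 367 in the CD4+ libraries and 339, 383, 448 and 430.0 in the CD8+ libraries. It differed by 3.56 ± 0.28 (SE) against CD4+ and 3.80 ± 0.28 against CD8+ TILs. Ctsd, the protease cathepsin D, differed by 1.42 and 1.38. Cd63, a membrane protein of lysosomes that melanosomes also hold, was the abundant member that was not called, at 327 to 707 CPM in the CD45+, 571 to 1537 in the CD4+ and 384 to 1304 in the CD8+ libraries (−0.96 and −0.73 (adjusted p = 0.0711 and 0.159, edgeR)). Its fold changes in the Yap-cKO tumors were 1.28 and 1.38. On the leukocyte scale only 5 of the 20 lysosomal genes were still called higher.

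Of 16 scavenger and efferocytosis receptors, 10 were higher and 2 lower, the latter count near the 14.8% lower among all tested genes. Msr1, the class A scavenger receptor, was at 382, 235, 342 and 454 CPM in the CD45+ libraries, 9.82, 2.28, 6.23 and 4.78 in the CD4+ libraries and 9.13, 3.37, 6.80 and 6.69 in the CD8+ libraries. It differed by 5.94 ± 0.47 (SE) against CD4+ and 5.77 ± 0.47 against CD8+ TILs (adjusted p = 6.93e-07 and 8.61e-07, edgeR). The lower members were Tyro3, a receptor for dying cells, and Mfge8, a bridging protein between dying cells and phagocytes. Mfge8 was at 37.5 to 56.1 CPM in the CD45+, 64.1 to 182 in the CD4+ and 67.7 to 296 in the CD8+ libraries (−1.62 and −1.70 (adjusted p = 0.00755 and 0.00546, edgeR)). Tyro3 was at 0.553 to 1.71 CPM in the CD45+, 7.86 to 18.5 in the CD4+ and 3.998 to 10.4 in the CD8+ libraries (−3.30 and −2.47 (adjusted p = 0.000102 and 0.00076, edgeR)). Tyro3 was called again in the Yap-cKO tumors (−3.95 and −3.19) and Mfge8 was not (−0.42 and 0.58). Cd36, a receptor for fatty acids, was at 93.4 to 307 CPM in the CD45+, 11.5 to 42.8 in the CD4+ and 8.92 to 162 in the CD8+ libraries, passed against CD4+ TILs and passed against CD8+ TILs only with the replicate block (2.70 and 1.45 (adjusted p = 0.00656 and 0.0946, edgeR)).

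The phagocyte oxidase, which makes superoxide, had 5 of 7 genes higher. Cyba, its p22 subunit, was at 1626, 1183, 2016 and 1374 CPM in the CD45+ libraries, 204, 318, 509.9 and 334 in the CD4+ libraries and 268, 172, 470.2 and 419 in the CD8+ libraries. It differed by 2.18 ± 0.35 (SE) against CD4+ and 2.22 ± 0.35 against CD8+ TILs (adjusted p = 0.000267 and 0.000242, edgeR). Ncf4, its p40 subunit, differed by 2.04 and 2.24. Rac1 and Rac2, small GTPases that other pathways share, were not called. Rac2 was at 668 to 757 CPM in the CD45+, 356 to 1309 in the CD4+ and 371 to 1146 in the CD8+ libraries (−0.32 and 0.004 (adjusted p = 0.56 and 0.995, edgeR)).

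Of 14 lipid-handling genes 11 were higher and 1 lower. Apoe, the apolipoprotein that macrophages release with cholesterol, was at 5809.7, 3058, 5148 and 2896 CPM in the CD45+ libraries, 1103, 769, 472 and 408 in the CD4+ libraries and 878, 469.7, 362 and 648 in the CD8+ libraries. Its T-cell values were highest in replicate 1 of each sort, as was the melanoma sum, and the difference was 2.62 ± 0.39 (SE) against CD4+ and 2.84 ± 0.40 against CD8+ TILs (adjusted p = 0.00016 and 9.26e-05, edgeR). Plin2, which coats lipid droplets, was at 571 to 1187 CPM in the CD45+, 118 to 249 in the CD4+ and 106 to 179 in the CD8+ libraries (2.55 and 2.87). Fabp4, a fatty-acid carrier of capillary endothelium and of some macrophages, was lower, at 28.8 to 78.7 CPM in the CD45+, 49.3 to 276 in the CD4+ and 30.1 to 519 in the CD8+ libraries (−2.02 and −2.58 (adjusted p = 0.0297 and 0.00881, edgeR)), and in the Yap-cKO tumors it was not called (0.22 and 0.09). Of 11 heme and iron genes 9 were higher. Hmox1, which breaks heme down, was at 819, 377, 751 and 758 CPM in the CD45+ libraries, 226, 126, 216 and 123 in the CD4+ libraries and 179, 64.5, 116 and 185 in the CD8+ libraries. It differed by 1.97 ± 0.36 (SE) against CD4+ and 2.31 ± 0.37 against CD8+ TILs (adjusted p = 0.000762 and 0.000262, edgeR). Fth1 and Ftl1, the chains of the iron store ferritin, were at 9704 ± 3441 CPM and 15229 ± 4286 CPM (SD, n = 4) in the CD45+ sort, with log2 fold changes of 2.06 and 2.37 and 1.18 and 1.47. That of Ftl1 against CD4+ TILs became −0.29 on the leukocyte scale.

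Genes of immune checkpoints were called in both directions. Of 16 ligand and suppressive myeloid genes, 9 were higher and 1 lower. Arg1, the enzyme that depletes arginine, was at 836, 245, 612 and 881 CPM in the CD45+ libraries, 36.4, 4.77, 14.3 and 17.2 in the CD4+ libraries and 34.6, 4.55, 12.3 and 20.9 in the CD8+ libraries. CD45+ replicate 2 again held the least, and the difference was 5.15 ± 0.73 (SE) against CD4+ and 5.16 ± 0.73 against CD8+ TILs (adjusted p = 0.000105 and 0.000107, edgeR). Sirpa, the receptor for the signal CD47, was at 544 to 948 CPM in the CD45+, 53.9 to 119.7 in the CD4+ and 43.1 to 94.9 in the CD8+ libraries (3.25 and 3.39). Vsir, the checkpoint protein VISTA, was at 429, 476, 509 and 500.1 CPM in the CD45+ libraries, 51.4, 179, 209.8 and 143 in the CD4+ libraries and 53.7, 81.1, 197 and 128 in the CD8+ libraries. It differed by 1.71 and 2.06 (adjusted p = 0.00544 and 0.00174, edgeR), and by −0.15 against CD4+ TILs with the melanoma covariate. Nectin2, a ligand of T-cell receptors that tumor and stromal cells also carry, was the lower member at 5.19 to 10.5 CPM in the CD45+, 9.56 to 26.5 in the CD4+ and 11.995 to 34.2 in the CD8+ libraries (−1.29 and −1.24 (adjusted p = 0.02 and 0.023, edgeR)), and its log2 fold changes in the Yap-cKO tumors were 1.31 and 1.78. Of 15 checkpoint and costimulatory receptors, 11 were lower and 2 higher, the latter count near the 13.2% higher among all tested genes. Pdcd1, the receptor PD-1, was at 13.7, 10.7, 16.9 and 6.58 CPM in the CD45+ libraries, 118, 299, 565 and 137 in the CD4+ libraries and 309, 109, 629 and 315 in the CD8+ libraries. The sorts did not overlap, and the difference was −4.55 ± 0.62 (SE) against CD4+ and −4.83 ± 0.63 against CD8+ TILs (adjusted p = 8.08e-05 and 5.61e-05, edgeR). Ctla4 was at 3.18, 4.10, 4.54 and 2.70 CPM in the CD45+ libraries, 133, 284, 305 and 273 in the CD4+ libraries and 58.6, 48.4, 120.3 and 39.1 in the CD8+ libraries. It was higher in CD4+ than in CD8+ TILs, with CD45+ differences of −6.10 and −4.19. Icos and Tnfrsf4, costimulatory receptors of activated and regulatory T cells, differed by −5.81 and −4.01 and −5.38 and −2.62. The higher members were Btla, an inhibitory receptor that B cells and dendritic cells carry, and Entpd1, the ectoenzyme CD39. Btla was at 57.6 to 126 CPM in the CD45+, 9.36 to 36.2 in the CD4+ and 6.62 to 12.3 in the CD8+ libraries (2.15 and 3.19 (adjusted p = 0.000747 and 5.19e-05, edgeR)), and Entpd1 at 94.1 to 196 CPM in the CD45+, 17.3 to 39.97 in the CD4+ and 30.7 to 52.1 in the CD8+ libraries (2.30 and 1.75 (adjusted p = 5.63e-05 and 0.000422, edgeR)).

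**Figure D4:**
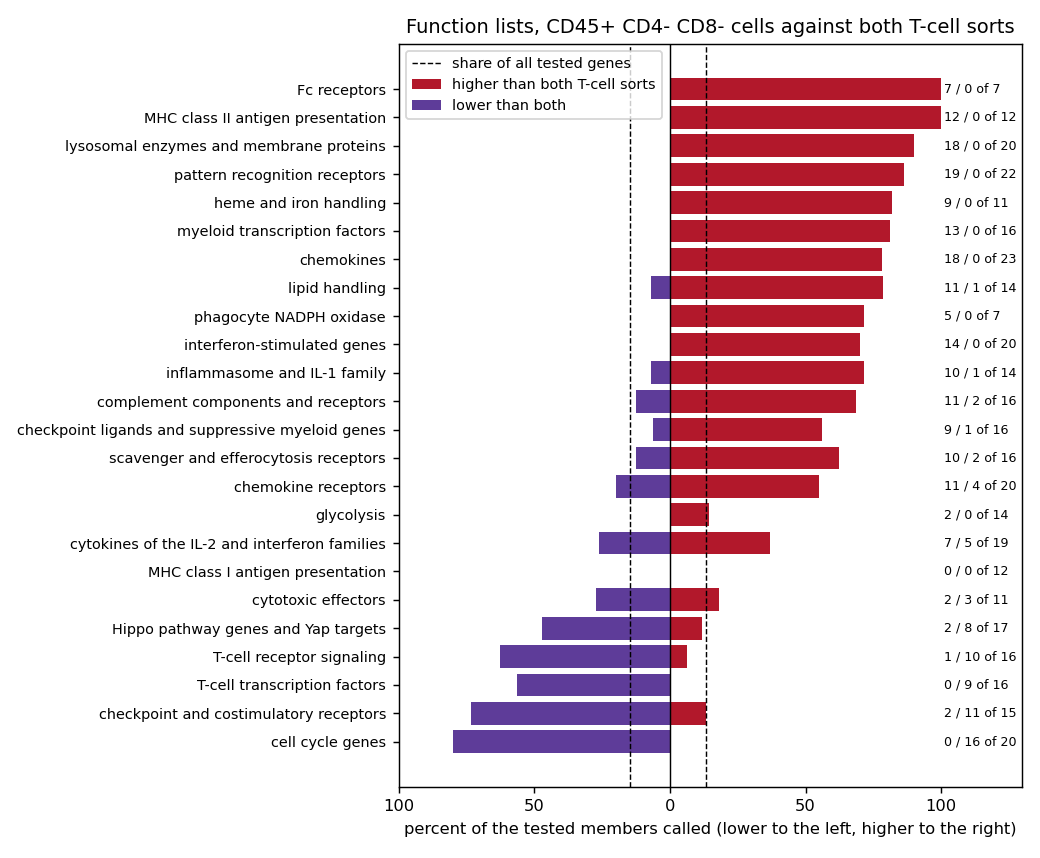
Share of the tested members of each function list that was higher (right) or lower (left) in the CD45+ CD4- CD8- sort than in both T-cell sorts, in percent; numbers give higher / lower of the members tested, and dashed lines mark 13.2% higher and 14.8% lower among all tested genes. MHC class II and Fc-receptor genes are higher throughout, while cell cycle, checkpoint-receptor and T-cell receptor signaling genes lie to the left.

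All 20 T-lineage markers were lower than in both T-cell sorts (median −5.03 and −4.79) and 19 or 20 of them under each alternative setting. CD3 was among the stains, but whether CD3+ cells were gated out of the CD45+ sort is not stated. The gates on CD4 and CD8 set the direction of the CD3 genes. Cd3e was at 1.52, 2.05, 2.48 and 2.57 CPM in the CD45+ libraries, 135, 537, 816 and 534 in the CD4+ libraries and 184, 231, 856 and 542 in the CD8+ libraries. It differed by −7.87 ± 0.70 (SE) against CD4+ and −7.71 ± 0.70 against CD8+ TILs (adjusted p = 1.98e-06 and 2.4e-06, edgeR). Cd3g and Cd3d differed by −6.90 and −6.99 and −6.58 and −6.71. Trac, the constant region of the receptor α chain, was at 4.70, 3.999, 4.75 and 5.13 CPM in the CD45+ libraries, 292, 643, 899 and 679 in the CD4+ libraries and 282, 272, 636 and 588 in the CD8+ libraries. Replicate 3 held the most in each T-cell sort, and all were far above the CD45+ values (−7.08 ± 0.45 (SE) against CD4+ and −6.58 ± 0.44 against CD8+ TILs). Trbc1 and Trbc2, the 2 similar constant regions of the β chain, kept more RNA in the CD45+ sort, at 17.3 to 29.4 and 14.05 to 19.8 CPM, and differed by −3.88 and −3.68 and −5.20 and −5.44. Lck, the kinase that starts receptor signaling, was at 56.9 to 64.8 CPM in the CD45+, 265 to 1056 in the CD4+ and 309 to 1032 in the CD8+ libraries (−3.54 and −3.43).

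Among the 15 genes with the largest differences on the lower side, at 50 CPM or more in each T-cell sort, were Cd3e, Cd3g, Cd3d, Bcl11b, Cd6, Lat, Cd5, Cxcr6, Pdcd1, Lef1, Ubash3a, Ctla4, Icos and Ikzf2. Bcl11b, the factor that commits thymocytes to the T lineage, was at 0.691, 0.718, 1.06 and 0.855 CPM in the CD45+ libraries, 33.5, 119, 153 and 185 in the CD4+ libraries and 32.3, 77.3, 158 and 70.7 in the CD8+ libraries. Its difference was −7.20 ± 0.65 (SE) against CD4+ and −6.66 ± 0.64 against CD8+ TILs (adjusted p = 2.31e-06 and 3.95e-06, edgeR). Cd5 and Cd6, related receptors that restrain T-cell signaling, were higher in CD4+ than in CD8+ TILs, and the CD45+ differences were −7.20 and −5.28 and −7.28 and −5.72. The remaining gene was Penk, which encodes the opioid precursor proenkephalin. Penk was at 1.73, 0.667, 1.99 and 0.526 CPM in the CD45+ libraries, 36.8, 59.2, 159.8 and 61.9 in the CD4+ libraries and 278, 8.18, 70.2 and 18.8 in the CD8+ libraries. It ranged over more than an order of magnitude among CD8+ libraries and was near 1 CPM in the CD45+ sort, with differences of −6.03 ± 1.06 (SE) against CD4+ and −6.27 ± 1.07 against CD8+ TILs (adjusted p = 0.000551 and 0.00045, edgeR).

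Of 16 myeloid transcription factors 13 were higher (median 3.80 and 3.73) and none lower. Cebpb, a factor of inflammatory myeloid cells, was at 1478, 1118, 1824 and 2118 CPM in the CD45+ libraries, 91.1, 113, 218 and 83.4 in the CD4+ libraries and 69.6, 49.4, 203 and 78.01 in the CD8+ libraries. It differed by 3.69 ± 0.47 (SE) against CD4+ and 4.03 ± 0.48 against CD8+ TILs (adjusted p = 4.59e-05 and 2.62e-05, edgeR). Irf8, which directs monocyte and dendritic cell fate and is also used in B cells, was at 563 to 1569 CPM in the CD45+, 29.99 to 91.9 in the CD4+ and 37.4 to 172 in the CD8+ libraries (3.90 and 3.42). Id2 and Stat3, which lymphocytes also use, were not called (0.58 and 0.93 and 0.32 and 0.50). Of 16 T-cell factors 9 were lower and none higher than in both. Tcf7, a factor of naive and memory-like T cells, was at 21.4, 35.7, 21.3 and 24.1 CPM in the CD45+ libraries, 106, 333, 387 and 392 in the CD4+ libraries and 78.6, 193, 349 and 289 in the CD8+ libraries. It differed by −3.57 ± 0.49 (SE) against CD4+ and −3.15 ± 0.48 against CD8+ TILs (adjusted p = 7.71e-05 and 0.000187, edgeR). Lef1 and Ikzf2, the latter known in regulatory T cells, differed by −4.52 and −4.31 and −4.60 and −4.01. Ets1, which B and NK cells share, was just past the fold threshold against CD8+ TILs (−1.38 and −1.001 (adjusted p = 0.0037 and 0.0215, edgeR)), and that call was lost with the replicate block.

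Of 16 genes of T-cell receptor signaling 10 were lower and 1 higher. Lat, the scaffold of the signaling complex, was at 3.80, 4.87, 5.10 and 3.42 CPM in the CD45+ libraries, 102, 291, 446 and 327 in the CD4+ libraries and 107, 128, 338 and 271 in the CD8+ libraries. It differed by −6.08 ± 0.53 (SE) against CD4+ and −5.61 ± 0.52 against CD8+ TILs. The higher member was Malt1, a protease that B-cell and myeloid receptors also use, at 82.7 to 96.2 CPM in the CD45+, 22.5 to 59.3 in the CD4+ and 25.3 to 57.8 in the CD8+ libraries (1.18 and 1.35 (adjusted p = 0.00886 and 0.00383, edgeR)), and with the melanoma markers as a covariate its differences were −0.44 and −0.16. Fyn was not called (−0.35 and −0.60 (adjusted p = 0.429 and 0.158, edgeR)). Of 11 cytotoxic genes, 2 were higher and 3 lower. Nkg7, a granule protein of cytotoxic cells, was at 150.2, 112, 132 and 145 CPM in the CD45+ libraries, 96.1, 212, 569.6 and 301 in the CD4+ libraries and 764, 497, 1858 and 1426 in the CD8+ libraries. It was lower than in CD8+ TILs and passed no test against CD4+ TILs (−1.13 and −3.07 (adjusted p = 0.0778 and 0.000364, edgeR)). Gzma, a granzyme of NK cells and CD8+ T cells, was at 110.1 to 193 CPM in the CD45+, 3.47 to 52.98 in the CD4+ and 13.9 to 213 in the CD8+ libraries and was higher than in CD4+ but not CD8+ TILs (2.71 and 0.86 (adjusted p = 0.0272 and 0.453, edgeR)), a direction that turned against CD4+ TILs with the melanoma covariate (−1.42). Srgn, the proteoglycan core of granules in many leukocytes, was higher than in both, at 1010.1 to 2195 CPM in the CD45+, 214 to 509 in the CD4+ and 168 to 420.4 in the CD8+ libraries (2.11 and 2.47). Gzmc, another granzyme, was at 27.7, 20.2, 50.3 and 61.2 CPM in the CD45+ libraries, 0.636, 1.14, 1.86 and 2.97 in the CD4+ libraries and 0.730, 0.464, 1.79 and 4.34 in the CD8+ libraries. It was higher than in both T-cell sorts by 4.58 ± 0.69 (SE) against CD4+ and 4.44 ± 0.69 against CD8+ TILs (adjusted p = 0.000177 and 0.000223, edgeR).

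Of 19 cytokine genes tested, 7 were higher and 5 lower. Tnf, the tumor necrosis factor gene, was at 433, 113, 213 and 188 CPM in the CD45+ libraries, 12.9, 5.66, 12.8 and 15.6 in the CD4+ libraries and 13.3, 4.72, 16.4 and 11.7 in the CD8+ libraries. The difference was 4.34 ± 0.50 (SE) against CD4+ and 4.36 ± 0.50 against CD8+ TILs (adjusted p = 1.93e-05 and 1.9e-05, edgeR). Ifng, the interferon-γ gene, was at 4.22, 6.10, 5.10 and 6.51 CPM in the CD45+ libraries, 3.64, 15.04, 29.6 and 49.5 in the CD4+ libraries and 52.3, 10.1, 45.3 and 187 in the CD8+ libraries. The lowest CD4+ value fell under the CD45+ values, and the difference was −2.15 and −3.74 (adjusted p = 0.043 and 0.00281, edgeR). Il2, the T-cell growth factor, had no more than 3 counts in any CD45+ library and was at 2.08 to 11.5 CPM in CD4+ and 0.657 to 2.92 CPM in CD8+ TILs, at least 31.6- and 8.43-fold lower. Lta, a lymphotoxin chain, was at 2.13 to 5.25 CPM in the CD45+, 8.73 to 36.96 in the CD4+ and 4.30 to 17.2 in the CD8+ libraries (−2.20 and −1.36 (adjusted p = 0.00449 and 0.0487, edgeR)), and Il21, a cytokine of helper T cells, was near the count limit in both CD45+ and CD8+ libraries. Il34, a ligand of Csf1r that epithelial and nerve cells make, was the fifth, at 0.142 to 0.622 CPM in the CD45+, 0.796 to 5.19 in the CD4+ and 0.176 to 4.59 in the CD8+ libraries (−3.07 and −2.42 (adjusted p = 0.0142 and 0.042, edgeR)). The calls of Lta and Il21 against CD8+ TILs were lost with the replicate block.

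Of 20 interferon-stimulated genes 14 were higher and none lower (median 1.69 and 2.07). Irf7, which amplifies the type I interferon response and is abundant in plasmacytoid dendritic cells, was at 185, 297, 260.5 and 454 CPM in the CD45+ libraries, 20.7, 55.3, 98.6 and 104 in the CD4+ libraries and 19.8, 33.7, 82.2 and 69.6 in the CD8+ libraries. It differed by 2.11 ± 0.52 (SE) against CD4+ and 2.54 ± 0.53 against CD8+ TILs (adjusted p = 0.0056 and 0.00179, edgeR). Isg15, a ubiquitin-like modifier, was at 57.2 to 181 CPM in the CD45+, 10.9 to 52.1 in the CD4+ and 8.25 to 34.97 in the CD8+ libraries (1.74 and 2.21 (adjusted p = 0.0175 and 0.00465, edgeR)), with −0.16 against CD4+ TILs under the melanoma covariate. In all 3 sorts replicate 1 held the least Isg15. On the leukocyte scale 5 of the 20 were called higher.

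Of 20 cell cycle genes 16 were lower and none higher (median −1.62 and −1.55). Rrm2, a subunit of the enzyme that supplies deoxynucleotides, was at 61.5, 58.2, 37.8 and 57.8 CPM in the CD45+ libraries, 427, 302, 187 and 258 in the CD4+ libraries and 347, 286, 171 and 289 in the CD8+ libraries. It differed by −2.45 ± 0.29 (SE) against CD4+ and −2.34 ± 0.29 against CD8+ TILs (adjusted p = 2.71e-05 and 3.75e-05, edgeR). Cdk1, the kinase that drives mitosis, was at 32.5 to 58.4 CPM in the CD45+, 105 to 239 in the CD4+ and 93.99 to 239 in the CD8+ libraries (−1.998 and −2.02), and Birc5, survivin, at 27.9 to 45.4 CPM in the CD45+, 102 to 182 in the CD4+ and 101 to 179 in the CD8+ libraries (−1.94 and −1.96). Within each sort replicate 1 held the most of each of the 3 genes. Replicate 1 also had the highest melanoma sum of each sort, and with the melanoma markers as a covariate none of the 20 was called against both. Melanoma RNA moved with sort so closely that sort accounted for 0.828 of the variance of that covariate, so the 2 cannot be told apart in the WT tumors. In the Yap-cKO tumors, where the melanoma sums averaged 1229.8 and 1182 CPM in the T-cell sorts, 14 of the 20 were lower in the CD45+ sort.

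Of 14 glycolysis genes tested, Slc2a1 and Slc16a3, which carry glucose and lactate across the membrane, were higher, and the 12 others were not called against both. That count lies near the 13.2% higher among all tested genes and sets the list apart from them in no way. Gapdh was at 3675 to 6246 CPM in the CD45+, 4219 to 8944 in the CD4+ and 3067 to 7702 in the CD8+ libraries (−0.28 and −0.08 (adjusted p = 0.552 and 0.869, edgeR)), and Eno1, enolase, at 4291 to 5683 CPM in the CD45+, 4802 to 8231 in the CD4+ and 3260.4 to 6677 in the CD8+ libraries (−0.26 and 0.02 (adjusted p = 0.508 and 0.969, edgeR)). The medians of −0.21 and 0.03 became −1.47 against CD8+ TILs on the leukocyte scale.

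All 11 melanoma markers were lower in the CD45+ sort (median −2.69 and −2.63). Dct, an enzyme of melanin synthesis, was at 754, 503, 400.0 and 638 CPM in the CD45+ libraries, 5151, 4009, 1784 and 2583 in the CD4+ libraries and 4575, 2964, 1337 and 3289 in the CD8+ libraries. Replicate 1 held the most and replicate 3 the least in each T-cell sort. The difference was −2.56 ± 0.41 (SE) against CD4+ and −2.41 ± 0.40 against CD8+ TILs (adjusted p = 0.000258 and 0.000397, edgeR). Pmel, the structural protein of melanosomes, was at 441, 448, 275 and 450.0 CPM in the CD45+ libraries, 4438, 3908, 1548 and 1882 in the CD4+ libraries and 3569, 2582, 797 and 3013 in the CD8+ libraries. It differed by −2.87 ± 0.46 (SE) against CD4+ and −2.63 ± 0.46 against CD8+ TILs. Tyrp1 and Mlana, further melanosome proteins, differed by −2.997 and −3.002 and −2.42 and −2.35. None of the 11 was called against both sorts in the Yap-cKO tumors. The log2 fold changes were still negative in both contrasts for 10 of the 11 there, at −1.69 and −1.61 for Dct and −2.11 and −1.54 for Pmel, and those of Mitf, the melanocyte factor, were 1.32 and 0.73. The mean melanoma sums of 366 CPM in the CD45+ and 1229.8 and 1182 CPM in the T-cell sorts, given above, lay in the same order as in WT tumors. Unlike in WT tumors, the sorts overlapped there. The sums were 139 to 553 CPM in the CD45+, 186 to 2815 in the CD4+ and 47.0 to 2827 in the CD8+ libraries.

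Many markers of vessel and matrix cells, which no sort was meant to hold, were also lower in the CD45+ sort. Of the markers tested, 6 of 12 endothelial, 7 of 11 fibroblast and 8 of 9 pericyte genes were lower than in both T-cell sorts. The endothelial sums overlapped, at 112 to 225 CPM in the CD45+, 215 to 526 in the CD4+ and 153 to 2120 in the CD8+ libraries. Against CD4+ and CD8+ TILs the adjusted p (exact permutation) was 0.0791 and 0.11 for the endothelial sum. It was 0.0429 and 0.0791 for the fibroblast and 0.0429 and 0.0514 for the pericyte sum. Col3a1, a fibrillar collagen chain of fibroblasts, was at 6.43, 11.3, 21.5 and 9.41 CPM in the CD45+ libraries, 99.7, 134, 211 and 28.5 in the CD4+ libraries and 32.1, 304, 34.5 and 8.80 in the CD8+ libraries. CD8+ replicate 2 stood apart and CD8+ replicate 4 fell within the CD45+ range, and the difference was −3.28 and −2.97 (adjusted p = 0.013 and 0.02, edgeR). Esam, an adhesion molecule of endothelium, was at 10.6, 11.6, 8.44 and 7.24 CPM in the CD45+ libraries, 79.7, 69.8, 76.8 and 19.1 in the CD4+ libraries and 81.9, 270.1, 80.2 and 15.1 in the CD8+ libraries. It differed by −2.69 and −3.56 (adjusted p = 0.00579 and 0.00113, edgeR), and CD8+ replicate 2 was again the highest. Rgs5, a regulator of G-protein signaling in pericytes, was at 4.14 to 10.3 CPM in the CD45+, 21.8 to 75.4 in the CD4+ and 9.79 to 88.5 in the CD8+ libraries (−2.72 and −2.81). Pecam1, which endothelium shares with leukocytes, was not called (−0.81 and −1.14 (adjusted p = 0.234 and 0.0957, edgeR)). In the Yap-cKO tumors no gene of the 3 lists was called lower than in both T-cell sorts and 3 endothelial genes were called higher. The hemoglobin gene Hbb-bs, a sign of red-cell RNA, passed neither test and was at 88.1 to 615 CPM in the CD45+, 73.1 to 708 in the CD4+ and 87.2 to 617 in the CD8+ libraries (0.36 and 0.46 (adjusted p = 0.726 and 0.632, edgeR)). Replicate 2 was the lowest of each sort.

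Yap1, the gene that the Yap-cKO line deletes in T cells, was lower in the CD45+ sort of WT tumors. It was at 5.95, 2.92, 4.54 and 4.54 CPM in the CD45+ libraries, 27.2, 21.8, 15.5 and 19.7 in the CD4+ libraries and 18.5, 25.7, 13.6 and 25.1 in the CD8+ libraries. The values did not overlap, and the difference was −2.23 ± 0.30 (SE) against CD4+ and −2.21 ± 0.30 against CD8+ TILs (adjusted p = 6.35e-05 and 6.99e-05, edgeR). In the WT lymph node Yap1 averaged 2.18 CPM in the CD45+, 1.70 in the CD4+ and 2.39 in the CD8+ sort. In the Yap-cKO tumors the T-cell sorts averaged 3.42 (CD4+) and 4.46 CPM (CD8+) and the CD45+ sort 1.88 CPM. Of 17 Hippo pathway genes and Yap targets, 8 were lower and 2 higher, the latter count near the 13.2% higher among all tested genes. Ccn1, a matricellular protein and Yap target, was at 19.6, 10.8, 12.3 and 25.2 CPM in the CD45+ libraries, 288, 94.5, 107 and 113 in the CD4+ libraries and 186, 249, 45.7 and 123 in the CD8+ libraries. It differed by −3.15 ± 0.52 (SE) against CD4+ and −3.15 ± 0.52 against CD8+ TILs (adjusted p = 0.000355 and 0.000364, edgeR). Ccn2, connective tissue growth factor and a further target, was at 5.18 to 15.6 CPM in the CD45+, 45.1 to 78.5 in the CD4+ and 26.3 to 269 in the CD8+ libraries (−2.44 and −3.14 (adjusted p = 0.00613 and 0.00139, edgeR)). Both targets are also expressed by fibroblasts and endothelium. None of the 8 was called against both sorts in the Yap-cKO tumors, where Tead3 and Tead4 had too few reads. The log2 fold changes there were −0.78 and −1.22 for Yap1, the latter past the test against CD8+ TILs (adjusted p = 0.0393, edgeR), and −1.34 and −0.94 for Ccn1. With the melanoma markers as a covariate, none of the 8 was called in WT tumors. The higher members were Axl, a receptor for dying cells on macrophages, at 111 to 299.5 CPM in the CD45+, 24.3 to 71.1 in the CD4+ and 16.95 to 36.9 in the CD8+ libraries (2.31 and 3.14), and Mob1a, a scaffold of the LATS kinases, at 260.4 to 402 CPM in the CD45+, 104 to 171 in the CD4+ and 107 to 165 in the CD8+ libraries (1.37 and 1.38). Mob1a became −0.08 against CD8+ TILs on the leukocyte scale.

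The Yap-cKO tumors give the same comparison in other animals, whose T cells, but not most CD45+ cells, differ in genotype. Of 14634 genes tested there, 1918 were higher (13.1%) and 1483 lower (10.1%) than in both T-cell sorts. The genes higher in both genotypes numbered 1393, which is 70.8% of the WT and 72.6% of the Yap-cKO list, and none was called in the opposite direction. The genes lower in both numbered 874, 39.6% of the WT and 58.9% of the Yap-cKO list, and 3 were opposite, Gpr137b, P3h2 and Dennd2a. Lyz2 had log2 fold changes of 7.09 and 4.54, Il1b of 7.69 and 6.66, H2-Ab1 of 6.27 and 5.94 and Cd3e of −8.47 and −8.30 in the Yap-cKO tumors.

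The lower genes were divided by their level in T cells of the draining lymph node. Of the 2209, 732 (33.1%) were under 1 CPM in all 8 T-cell libraries of the WT lymph node, against 15.3% of all tested genes and 624 (31.7%) of the 1968 higher genes. Of the 732, 466 had enough reads in the Yap-cKO tumors and 37 (5.05%) were called lower there. Of the 1477 others, 837 (56.7%) were called lower there. The summed level of the 732 was 2395 to 3608 CPM in the CD45+, 12912 to 26135 in the CD4+ and 10748 to 32346 in the CD8+ libraries of the WT tumors. In the Yap-cKO tumors it was 680.4 to 1426 CPM in the CD45+, 673 to 5368 in the CD4+ and 245 to 4103 in the CD8+ libraries. The sum was higher in the WT T-cell sorts than in any Yap-cKO sort. The 732 were chosen as genes high in these same WT T-cell libraries, so that comparison is no independent test of genotype. How much of it is RNA of tumor or stromal cells was not tested. Of the 1968 higher genes, 1533 (77.9%) were at 1 CPM or more in all 4 CD45+ lymph node libraries, against 74.6% of all tested genes.

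**Figure D5:**
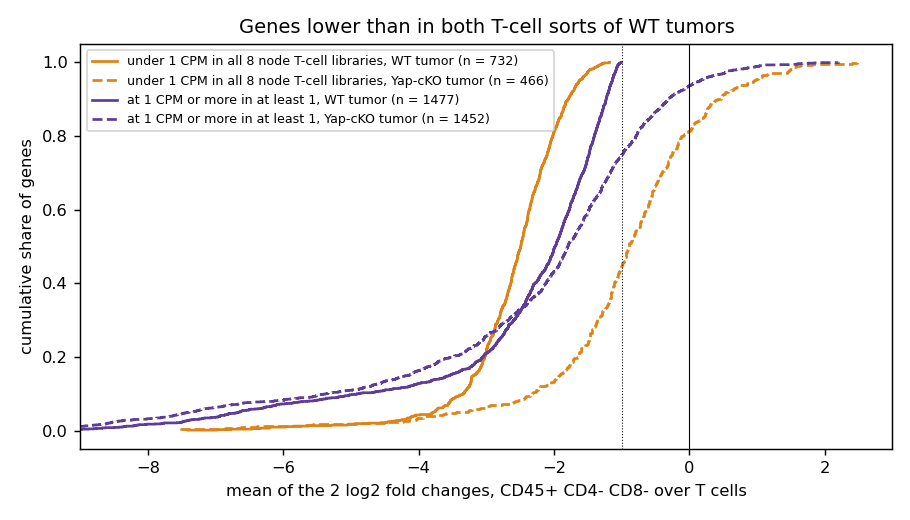
Cumulative share of the genes lower than in both WT T-cell sorts against the mean of their 2 log2 fold changes, in WT (solid) and Yap-cKO (dashed) tumors; 732 genes under 1 CPM in all 8 lymph node T-cell libraries are drawn apart from the 1477 others, and Yap-cKO curves hold the 466 and 1452 of them tested there. The WT curves were chosen to lie under −1; the Yap-cKO curve of the first class is shifted toward 0, with medians of −1.03 and −0.81 against CD4+ and CD8+ TILs, more than that of the second, with −1.84 and −1.73.

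The difference between genotypes was tested directly as an interaction over the 24 tumor libraries. Of 15839 genes, 35 (0.221%) had a difference between the CD45+ and both T-cell sorts that itself differed between WT and Yap-cKO tumors. At an unadjusted p under 0.05 there were 2139 genes with CD4+ and 2111 with CD8+ TILs. In 33 of the 35 the value of CD45+ relative to T cells was lower in WT tumors. They included Vegfa, the vascular growth factor, with interaction terms of −3.39 and −2.97 (adjusted p = 0.00394 and 0.0214, edgeR), and Kdr, its endothelial receptor, with −5.20 and −6.70 (adjusted p = 0.0349 and 0.0214, edgeR). The 2 genes of the opposite sign were B-cell genes. Cd79b, the partner of Cd79a, was at 523, 428, 207 and 342 CPM in the CD45+ libraries, 3.93, 6.95, 3.66 and 3.03 in the CD4+ libraries and 5.48, 6.11, 8.53 and 10.9 in the CD8+ libraries, and Cd22, an inhibitory lectin of B cells, at 77.6 to 186 CPM in the CD45+, 1.39 to 2.13 in the CD4+ and 2.85 to 5.97 in the CD8+ libraries. Their interaction terms were 2.85 and 2.36 (adjusted p = 0.0104 and 0.0352, edgeR) and 2.11 and 1.92 (adjusted p = 0.0242 and 0.0378, edgeR). With the replicate block the count was 274, and by DESeq2 217. It was also sensitive to single libraries, falling to 0 without WT CD45+ replicate 1 and rising to 200 without Yap-cKO CD4+ replicate 3.

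Y-linked RNA split the WT tumor libraries by replicate number. The sum of 4 Y-linked genes was 152, 111, 134 and 2.70 CPM in the CD45+, 43.05, 44.2, 69.7 and 4.30 in the CD4+ and 69.4, 93.6, 119 and 3.93 in the CD8+ libraries. Replicate 4 was the lowest of each of the 3 sorts. In the Yap-cKO tumors the sum was 2.57 to 4.27 CPM in the CD45+, 3.51 to 7.85 in the CD4+ and 4.11 to 9.28 in the CD8+ libraries. Genotype and Y-linked level were thus partly bound together. The part of this in the comparisons of WT with Yap-cKO tumors, the interaction among them, was not tested.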

How the data were processed

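RNA from cells sorted into TRIzol was purified (miRNeasy) and amplified with the SMART-Seq v4 kit. The authors trimmed reads with Trimmomatic, inspected them with FastQC and quantified transcripts with Salmon 0.9.1 (build mm10 in the submitters' processing notes), and deposited for each library the estimated counts, TPM values and effective lengths of 112092 transcripts. SMART-Seq v4 does not mark strand, so overlapping antisense genes cannot be separated. No deposited table mixed samples (0 such columns used).

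The deposited estimated counts of the 111787 transcripts found in GENCODE M21 were summed to 34932 genes and rounded, and 0.0671 to 0.108% of counts went unmatched. Genes that reached 10 counts in 4 or more libraries were tested by the quasi-likelihood test of edgeR 4.0.16 (R 4.3.3) with TMM factors, in 1 model of the 3 sorts. Calls required an adjusted p under 0.05 (Benjamini-Hochberg) and an absolute log2 fold change above 1. Marker sums were compared by exact two-sided permutation. The deposited TPM, as the authors' program gave it, ranked genes within a library. The script for the tests was checked on simulated counts. Alternatives were DESeq2 1.42.0, other scalings, no filter, length offsets, the replicate number as a block, separate fits, a melanoma covariate and libraries left out. Intervals of counting error are not given, and amplified reads without molecular identifiers are not independent molecules.

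Named genes were Lyz2, Csf1r, Cd3e, the sorted antigens and Yap1, the 15 higher and 15 lower protein-coding genes with the largest smaller difference at a mean of 50 CPM or more, without overlap and without receptor segments or unnamed models, the 4 members of each list with the highest TPM, and members called against the majority of their list. A single gene among those that the rule names was left out and is not reported here. Klrc1, Crtam, Smyd1, Eomes, Gpr137b, P3h2, Dennd2a, Cd22, Kdr, Vegfa, Slc2a1, Slc16a3, Nod1, Ddx58, Tmem173, Ly6g, Camp and Ngp were named after their values were seen. The members, lists and tests were chosen with earlier results of these data known.

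Same-numbered libraries of different sorts deviated together from their group means. Their correlations across genes were 0.118 to 0.736 in all 12 pairs (log2 of CPM + 0.5). Those of different-numbered libraries were −0.616 to 0.214, so the ranges overlapped. CD4+ replicate 4, for example, correlated more with CD8+ replicate 3 (0.214) than with CD8+ replicate 4 (0.118). The main fits and the permutation tests did not pair libraries. The numbers were taken to pair the samples in the alternative fit with the replicate block.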

Additional observations from a re-analysis of the deposited data

Results flagged for a closer look

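Within groups of 4 libraries, 33 of the 533 sets of values behind 164 named genes and the marker sums had 1 library apart from the other 3 by Dixon's criterion, which chance alone meets in about 1 of 20 groups. CD45+ replicate 2 was the low library for Clec4n (295.4 CPM), Fcgr2b (564.5), Plin2 (571.5), Hmox1 (376.7), Ccl2 (599.2), Hbb-bs (88.08) and the summed erythroid markers (236.2), and the high library for Fyn (219.6). CD45+ replicate 4 was apart for Ptprc (803.8 CPM), Csf3r (364.1) and Ccr7 (611.3, the low value). CD45+ replicate 1 was the high library for Klre1 (32.98 CPM), Trbc1 (29.38) and Ccl5 (236.5), and replicate 3 the low library for Pmel (274.7) and Rrm2 (37.79).

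Among the T-cell libraries, CD8+ replicate 2 was the high library for Col3a1 (304 CPM), Kdr (450.6), Ccn2 (269.1) and the summed fibroblast markers (838.96), and the low library for Ctsd (776.1). CD4+ replicate 1 was apart for Ccn1 (287.9 CPM, high), Ccr4 (8.09, low) and the summed gamma-delta T and innate lymphoid markers (34.38, low). CD4+ replicate 4 was low for Esam (19.06 CPM) and high for Klra2 (1.168). CD4+ replicate 3 was high for Ifitm6 (1.586 CPM), Eomes (4.647) and the summed keratinocyte markers (6.123), and CD4+ replicate 2 low for Chil3 (0.7944). CD8+ replicate 1 was low for Adgre4 (0.219 CPM) and high for Cd209a (4.819), and CD8+ replicate 4 high for Slc16a3 (207.1).

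The differences between genotypes that passed the interaction test and whose genes are named were those of Cd79b (log2 differences of 2.845 with CD4+ and 2.365 with CD8+ TILs), Cd22 (2.109 and 1.918), Kdr (−5.204 and −6.698), Vegfa (−3.393 and −2.971) and Gpr137b (−3.016 and −2.854), each as WT minus Yap-cKO.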

How the results depend on the processing

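Most limits come from scaling and from the melanoma RNA that moved with sort. With total counts alone, 4378 genes were lower than in CD4+ and 4677 than in CD8+ TILs, 3869 than in both, and 1854 of the WT lower genes were lower again in Yap-cKO tumors. All 2209 lower and 1365 of the 1968 higher genes were among the calls. Scaled on the pan-leukocyte genes, 993 were higher and 7283 lower than in CD4+, 955 and 8628 than in CD8+, and 856 and 6934 than in both, with 723 and 1797 called again in Yap-cKO tumors and 161 interactions. The log2 ratios of the melanoma sums then became −3.791 and −3.844. On this scale the log2 fold changes of Pycard (−0.0288) and Ftl1 (−0.288) against CD4+, and of Rac2 (−1.137), Lgals9 (−0.292) and Mob1a (−0.0813) against CD8+ TILs turned negative.

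With the melanoma markers as a covariate, 1076 genes were higher and 960 lower than in CD4+, 1141 and 891 than in CD8+, and 963 and 761 than in both, of which 779 and 508 were among the main calls, with 832 higher genes called again in Yap-cKO tumors. Values then reversed for Dct (0.0600 and 0.104), Pmel (0.262 and 0.422), Mlana (0.181 and 0.195), Ccr7 (−0.847 and −0.707) and Malt1 (−0.440 and −0.161) against CD4+ and CD8+, and for Cd8b1 (−0.272), Gzma (−1.422), Ccl5 (−2.634), Vsir (−0.147) and Isg15 (−0.159) against CD4+ TILs. Sort accounts for 0.828 of that covariate's variance, so this fit removes much of the difference between sorts.

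DESeq2 called 2087 higher and 2289 lower than both, and an adjusted p alone 2489 and 2665. With the replicate block, 2104 were higher and 2340 lower than both, and beside the genes given in the report it changed only the call of H2-D1 and Col1a1 against CD8+ TILs among those named by rule. Leaving out libraries in turn gave 1438 to 1984 higher and 1629 to 2176 lower than both. The interaction count was least stable, at 16 with length offsets, 274 with the replicate block, 217 by DESeq2, and 0 (without WT CD45+ replicate 1) to 200 (without Yap-cKO CD4+ replicate 3) with a library left out. The cause of these changes was not tested. Genes under 3 counts in a library, 0.126 to 0.219 CPM, could not be told from absent ones.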
